A study of Mus musculus with 3 samples.

Results

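Integrins and laminins are the receptors and the sheet-forming proteins through which a cell meets its basement membrane, and the mRNA levels of their subunit genes were examined in 3T3-L1 adipocytes exposed to glucose oxidase. Members were taken by gene symbol alone, as integrin alpha (Itga), integrin beta (Itgb) and laminin alpha, beta and gamma (Lama, Lamb, Lamc) genes, and 34 of the 18194 genes with a probe set of their own qualified. They comprised 24 integrin genes and 10 laminin genes. Itga11 and Itgad, which fit the same symbols, were not analysed here.

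The series held 3 samples, all of 1 group. 3T3-L1 is an established clonal mouse fibroblast line that can be turned into fat cells in culture, and glucose oxidase is an enzyme that oxidises glucose and releases hydrogen peroxide into the medium as it does so. By the paper's account the exposure lasted 2 h, with a dose not given in the sources used here. The labels call the cells insulin resistant and, in the tissue field, preadipocytes, whereas the growth protocol describes differentiated adipocytes. Control arrays were not analysed here, so each value below is a level after treatment and none is a response to it. No source says that separate cultures were used, and the SDs below may therefore be technical only.

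An integrin is a pair of membrane-spanning chains, 1 alpha and 1 beta. The alpha chain largely sets which matrix protein is bound, and the beta chain's short tail connects to the actin cytoskeleton through talin and kindlin. A laminin is a secreted trimer of 1 alpha, 1 beta and 1 gamma chain. Many laminins, though not all, are cross-shaped and polymerise in the basement membrane. Each mature fat cell is wrapped in such a membrane, and fibroblasts change their integrins and matrix as they become adipocytes.

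RNA was measured on the mouse4302 Affymetrix array, and the level of a gene is the log2 of the deposited intensity, read from whichever of its probe sets had the highest mean. The background limit was a log2 intensity of 7.57, the 95th percentile over 86 probe sets of chemosensory receptor genes (olfactory, taste and vomeronasal). A gene was called above background if any of its probe sets exceeded this limit in all 3 arrays. By this rule 15 of the 34 members were above background (44.1%), against 54.5% of all genes. The 15 comprised 9 of 24 integrin genes and 6 of 10 laminin genes. Their median level was 9.30, against 9.49 for all genes above background. Probe sets differ in how well they bind their targets, so the levels of different genes are not comparable with each other. A transcript called above background need not be translated, and in a whole culture fewer cells with a transcript cannot be told apart from less of it per cell.

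Among the alpha subunits, all 3 measured genes of the laminin-binding class were above background, beside 54.5% of all genes. Itga6, whose product pairs with beta1 or beta4, was at 11.55, 11.54 and 11.58 in replicates 1, 2 and 3 (11.56 ± 0.025, SD, n = 3). Itga7, best known as the laminin receptor of muscle, was at 9.30, 9.27 and 9.32 (9.30 ± 0.023, SD, n = 3). Itga3, known from epithelial basement membranes, was at 8.13, 8.07 and 7.99 (8.06 ± 0.070, SD, n = 3). The arrays lay closer together for Itga6 and Itga7 than for Itga3, which was nearest to the limit. Itga3 passed through only 1 of its 3 probe sets, and it did not pass with the 99th percentile as the limit.

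In the class that recognises the tripeptide RGD of fibronectin and vitronectin, 3 of 4 genes were above background. Itgav, whose product pairs with several beta chains, was at 10.74, 10.70 and 10.77 (10.74 ± 0.035, SD, n = 3). Itga5, the alpha chain of the classical fibronectin receptor, was at 7.83, 7.98 and 8.16 (7.99 ± 0.16, SD, n = 3). Its replicates spread more widely than those of 98.9% of genes above background. Itga2b, the alpha chain of the platelet fibrinogen receptor, was at 9.07, 9.11 and 9.10 (9.10 ± 0.021, SD, n = 3). All 3 arrays thus held Itga2b well over the limit with little spread, through a single probe set. The platelet and megakaryocyte genes Pf4, Ppbp and Gp9 were not above background, with means of 5.89, 4.72 and 7.54. Gp1bb, a subunit of the platelet von Willebrand factor receptor, was at 7.80 ± 0.035 (SD, n = 3). Itga8, the fourth of the class, was at 5.50 ± 0.11 (SD, n = 3).

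The remaining alpha classes did not pass the limit. For the collagen-binding class the count was 0 of 3, with Itga1 at 6.98, 7.13 and 7.18, Itga10 at a mean of 6.96 and Itga2 at 6.47. For Itga4 and Itga9, whose products bind fibronectin segments, VCAM1 and tenascin, it was 0 of 2, with means of 6.16 and 7.05. For the leukocyte alpha chains it was 0 of 4. Itgal, the alpha chain of LFA-1, came closest, at 7.52, 7.63 and 7.41, and exceeded the limit in replicate 2 alone. Itgae, which marks lymphocytes within epithelia, was at 7.49, 7.45 and 7.46, just under the limit in each array. Itgax, a dendritic cell marker, was at 7.34, 7.39 and 7.17, and the macrophage and neutrophil gene Itgam was lower, at a mean of 5.60. With the 90th percentile as the limit, Itgal and Itgae passed.

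Of the 8 beta subunit genes, 3 were above background. Itgb1, the common partner of most alpha chains, was at 10.63, 10.62 and 10.66 (10.63 ± 0.020, SD, n = 3). Itgb5, which pairs with alphav to bind vitronectin, was at 11.33, 11.27 and 11.24 (11.28 ± 0.047, SD, n = 3), and all 4 of its probe sets passed. Itgb2, the beta chain of the leukocyte integrins, was at 7.98, 8.05 and 7.98 (8.01 ± 0.042, SD, n = 3). It stood less than 0.5 log2 units over the limit. The beta chains of epithelial or platelet integrins were not above background, with Itgb3 at a mean of 6.88, Itgb4 at 6.61 and Itgb6 at 5.48. The lymphocyte gene Itgb7 was at 6.46 and Itgb8, known for its part in activating TGF-beta, was at 3.87.

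Among the laminin genes, 2 of 5 alpha chains, 3 of 3 beta chains and 1 of 2 gamma chains were above background. Lama4, an alpha chain of fat, muscle and vessel basement membranes, was at 11.23, 11.22 and 11.30 (11.25 ± 0.041, SD, n = 3). Lama5, an alpha chain of many mature basement membranes, was at 8.69, 8.65 and 8.75 (8.70 ± 0.052, SD, n = 3). Both were over the limit in each array, and in both replicate 3 was the highest. The other alpha chains did not pass. Lama2, the alpha chain of muscle and nerve, was at 7.21, 7.31 and 7.40. Lama3, the alpha chain of skin and other epithelia, was at 7.32, 7.24 and 7.09. These lay within 0.5 log2 units of the limit, whereas Lama1, the alpha chain of the early embryo, was at a mean of 4.80.

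Lamb1, the beta chain shared by the most widespread laminins, was at 11.93, 11.90 and 11.97 (11.93 ± 0.034, SD, n = 3). Lamc1, the gamma chain of most laminins, was at 9.86, 9.94 and 9.97 (9.92 ± 0.057, SD, n = 3). These chains were clearly over the limit in every array. Lamb3, the beta chain of the skin laminin, was at 8.02, 8.27 and 8.32 (8.20 ± 0.16, SD, n = 3). Lamb2, the beta chain of the neuromuscular junction and kidney filter, was at 7.64, 7.58 and 7.88 (7.70 ± 0.16, SD, n = 3). In replicate 2 it exceeded the limit by less than its SD, and without replicate 3, on a recomputed limit of 7.59, it did not pass. Lamc3 was at 7.26, 7.06 and 7.30 and did not pass. The 11 members within 0.5 log2 units of the limit were Itga3 (8.06), Itgb2 (8.01), Itga5 (7.99) and Lamb2 (7.70) above it, and Itgal (7.52), Itgae (7.47), Lama2 (7.31), Itgax (7.30), Lama3 (7.21), Lamc3 (7.21) and Itga1 (7.10) below it.

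**Figure D1:**
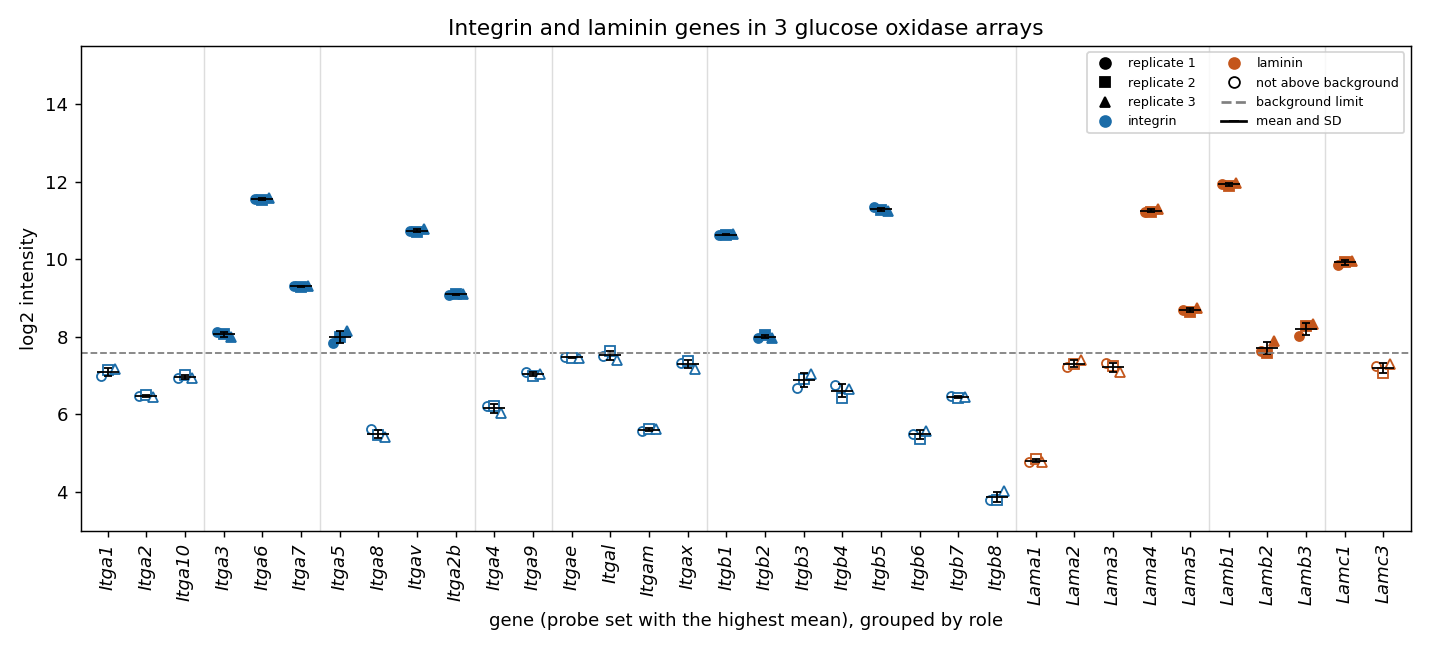
Log2 intensity (y axis) of the 34 integrin and laminin genes (x axis, grouped by role) after 2 h of glucose oxidase, with 1 symbol per replicate, bars for the mean and SD (n = 3) and the background limit of 7.57 as a dashed line. Filled symbols mark the 15 genes above background. Heights of different genes are not comparable.

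Whether the subunits above background could complete a receptor or a laminin was asked with the 24 integrin pairs and with 13 laminin trimers known in mammals. Of the 22 integrin pairs with both genes measured, 6 had both above background. In 5 of them the beta gene was Itgb1, with Itga3, Itga5, Itga6, Itga7 or Itgav, and the other was Itgav with Itgb5. The pairs with Itga3 and Itga5 rest on alpha genes within 0.5 log2 units of the limit. For 2 pairs, Itga4 with Itgb7 and Itgae with Itgb7, neither gene passed. The remaining pairs had 1 gene above background. Itga2b had no partner, since Itgb3 did not pass, and Itgb2 had none among Itgal, Itgam and Itgax. Itga6 met the limit but Itgb4, its epithelial partner, did not.

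Of these 13 laminin trimers, 4 had all 3 above background. These combined Lama4 or Lama5 with Lamb1 or Lamb2 and with Lamc1. Each of the 9 others lacked an alpha chain gene, Lamc3 or both. Both trimers with Lamb2 rest on the call for that gene. Lamb3, also above background, is in none of the 13, so whether it could complete a laminin was not assessed. Under the 99th percentile, under keratin-associated and defensin genes as background, and without replicate 3, 2 trimers remained, those with Lamb1.

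**Figure D2:**
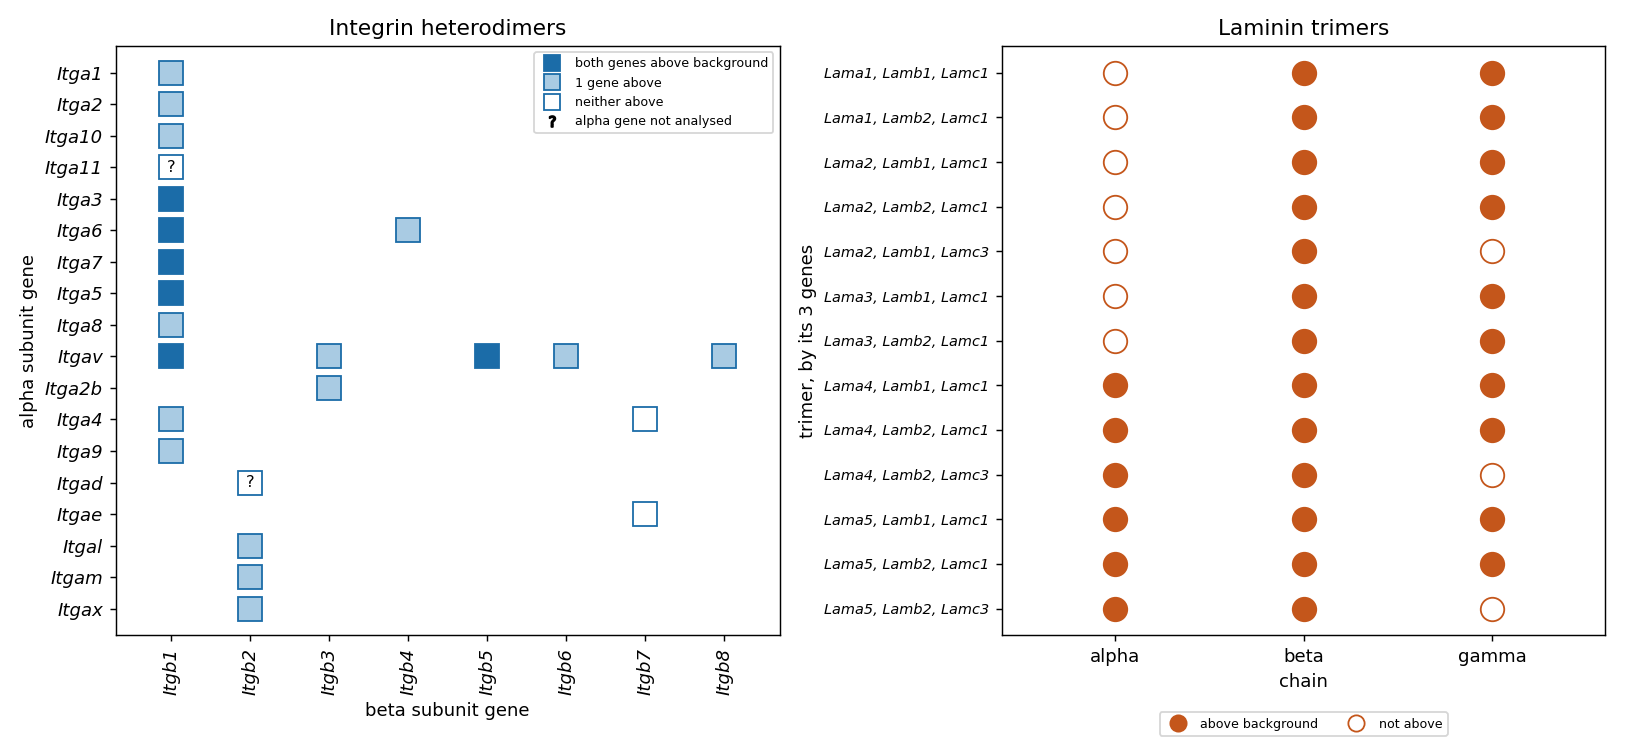
Left, the 24 integrin heterodimers by alpha gene (y axis) and beta gene (x axis), shaded by whether both genes, 1 or neither was above background, with a question mark where the alpha gene was not analysed. Right, the chain genes (x axis) of 13 laminin trimers (y axis), filled where above background. Both genes passed in 6 heterodimers and all 3 in 4 trimers.

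Probe sets of the same gene often disagreed. The 34 members had 73 probe sets, of which 25 were above background. Of the 20 members with several probe sets, all passed in 4 (Itga6, Itgb5, Lama4 and Lamc1), some in 6 and none in 10. A wide gap was found for Itgb1. Of its 6 probe sets, 3 had means of 10.63, 10.41 and 8.63, while the other 3 were at 5.10, 3.48 and 3.08. For Itgav 1 of 5 passed, at 10.74, and the next was at 7.60 and missed the limit in replicate 1 alone. For Lamb1 3 of 4 passed, at 11.93, 10.17 and 9.74, against 5.81 for the last. The call of 9 members rested on a single probe set. For Itga3 and Itga5 that probe set has an identifier ending in _s_at, which marks a set that can also detect another transcript. Their other sets were at 7.21 and 7.47 or lower. The levels of Lamb1 and Itgb5 were also read from sets with an ending of this kind, _s_at and _x_at. Without sets of these endings Lamb1 was at 10.17 and Itgb5 at 10.08, and both still passed. With the median over its probe sets as a gene's level, Itgb1 was at 6.87, Itgav at 6.75, Lama5 at 6.64, Itga3 at 7.21 and Itga5 at 6.26, so that 10 members passed and no integrin pair (0) was complete.

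A gene with several probe sets has more chances to pass the rule, and a larger share of such genes did. Of the 14 members with 1 probe set, 5 passed (35.7%), against 39.3% of all such genes. Of the 20 with more, 10 passed (50%), against 70.0% of all such genes. The 5 that passed with 1 probe set were Itga2b, Itga7, Itgb2, Lamb2 and Lamb3.

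**Figure D3:**
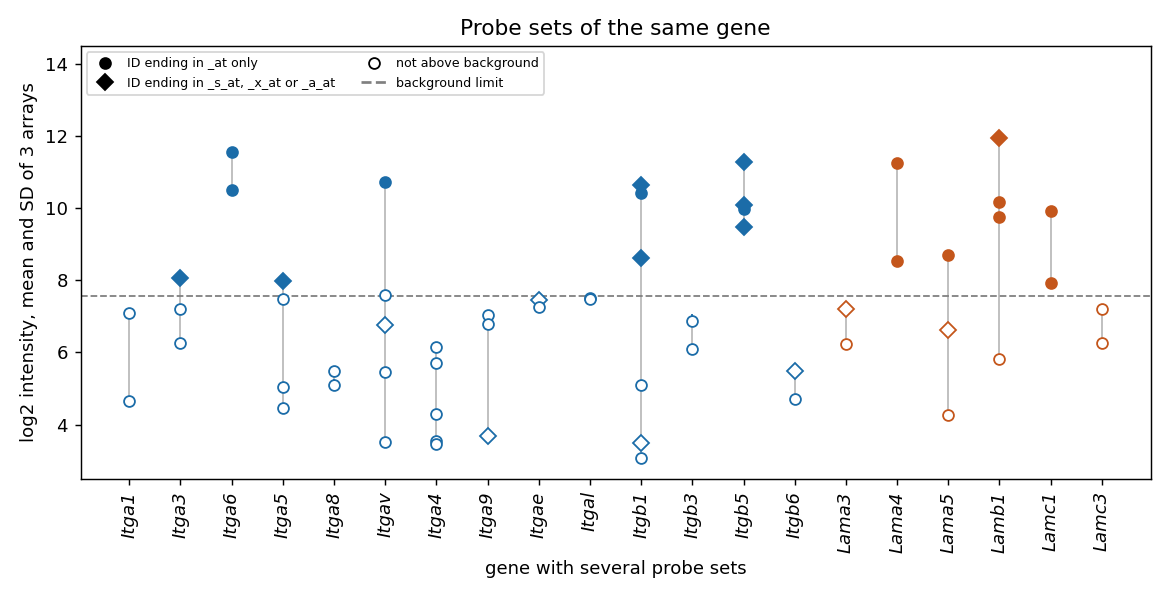
Mean log2 intensity with its SD (y axis, n = 3) of every probe set of the 20 members with several (x axis), filled where above the background limit of 7.57 (dashed line) in all 3 arrays. Diamonds are probe sets with an identifier ending in _s_at, _x_at or _a_at, and a grey line joins the probe sets of a gene; most SD bars are shorter than the symbols. All probe sets passed for Itga6, Itgb5, Lama4 and Lamc1, whereas those of Itgb1 ran from 3.08 to 10.63.

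The median SD of the 15 was 0.042 log2 units, against 0.048 for all genes above background, and 6 of the 15 exceeded the latter. The SD ran from 0.020 for Itgb1 to 0.16 for Itga5, Lamb2 and Lamb3. These 3 had a wider spread than at least 98.7% of genes above background.

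Replicate 3 held the highest value for 11 of the 15 members, against 40.8% of all genes above background. It was the highest for all 6 laminin genes above background and for 5 of the 9 integrin genes (Itga5, Itga6, Itga7, Itgav and Itgb1). By probe sets, it was the highest in 9 of the 10 laminin and 9 of the 15 integrin probe sets above background, against 43.2% of all such probe sets. The difference of replicate 3 over replicate 1 had a median of 0.088 log2 units over the 6 laminin genes, from 0.036 for Lamb1 to 0.30 for Lamb3, and of 0.020 over all genes above background. Replicates of 1 group have no order, and probe sets of a gene share its RNA, so this is a description of these arrays. The arrays were otherwise alike, with median intensities of 127.6, 126.9 and 126.9 in replicates 1, 2 and 3 and a Pearson's r of 0.997 to 0.998 between pairs across the probe sets above background.

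**Figure D4:**
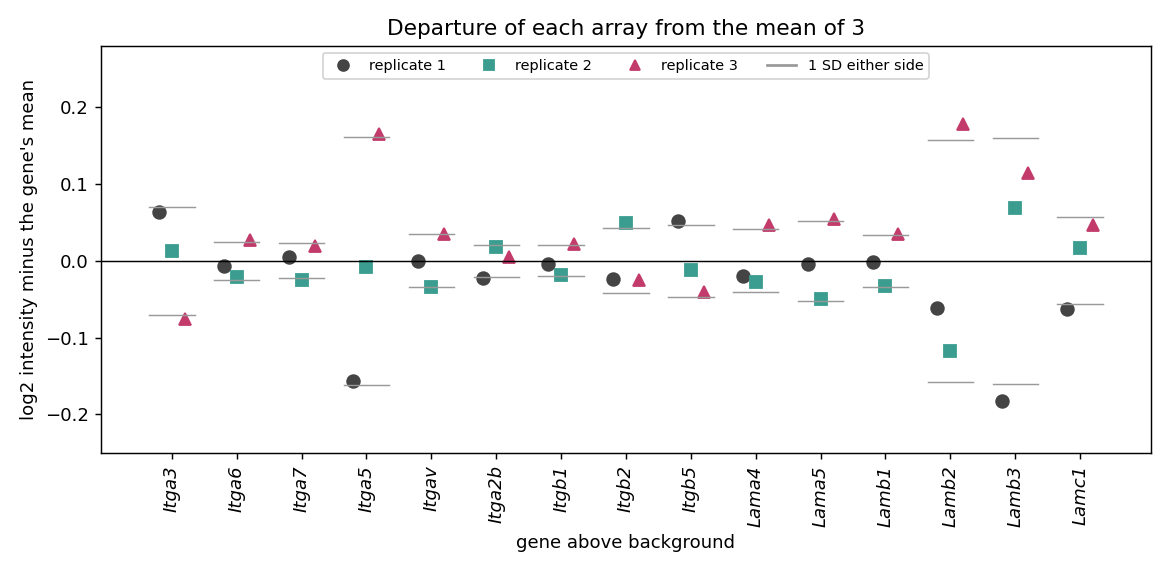
Departure of each replicate's log2 intensity from the gene's mean (y axis) for the 15 members above background (x axis), with grey lines at 1 SD either side. Replicate 3 lies highest for all 6 laminin genes, and the departures are widest for Itga5, Lamb2 and Lamb3.

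The genes that work with integrins inside the cell were mostly above background. By the same rule 54.5% of all genes passed, and 70.0% of all genes with several probe sets. Of 27 measured adaptors and kinases of focal adhesions, the sites where integrins hold actin, 25 passed (92.6%). Among them were Vcl, which encodes vinculin, at 11.78 ± 0.053 (SD, n = 3), Zyx at 11.52 ± 0.041 (SD, n = 3), the kindlin gene Fermt2 at 11.48 ± 0.0079 (SD, n = 3) and Actn4 at 11.39 ± 0.024 (SD, n = 3). Fermt3, the kindlin of blood cells, and Parvb did not pass, at means of 6.98 and 6.45. Of 12 membrane partners and tail binders, 9 passed (75.0%), including Cav1 at 13.70 ± 0.021 (SD, n = 3) and Cd151, a tetraspanin partner of laminin-binding integrins, at 12.63 ± 0.011 (SD, n = 3). Plaur, Itgb1bp2 and Itgb3bp did not, at 7.53, 6.55 and 7.27.

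Outside the cell, the other components of the basement membrane were mostly above background, beside a share of 54.5% for all genes. The count was 8 of 9 (88.9%), among them Sparc at 13.67 ± 0.014, the collagen IV genes Col4a1 at 13.06 ± 0.020 and Col4a2 at 12.65 ± 0.027, and the laminin-binding linker gene Nid1 at 12.15 ± 0.043 (SD, n = 3). Ntn4 was at 5.86. For the other integrin ligands it was 5 of 13 (38.5%), with Postn at 12.81 ± 0.048, Fn1, the fibronectin gene, at 11.97 ± 0.0074, Thbs1 at 10.97 ± 0.026 and Vcam1 at 10.73 ± 0.077 (SD, n = 3). The ligands of leukocyte integrins Icam1, Icam2 and Madcam1 were not above background, at 6.16, 5.97 and 6.24, nor were Tnc, Npnt, Vtn, Cdh1 and Ibsp, at 6.71, 7.05, 6.03, 3.95 and 4.62. Among 8 genes listed as laminin receptors other than integrins, 7 passed (87.5%). Rpsa was at 13.35 ± 0.014, the dystroglycan gene Dag1 at 12.12 ± 0.022, Mcam at 10.99 ± 0.089 and Sdc4 at 10.95 ± 0.065 (SD, n = 3). An mRNA level does not show how much of a product serves as a receptor. Bcam, which binds laminins with the Lama5 chain, was at 7.65, 7.58 and 7.55 and fell short of the limit in replicate 3.

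The cell type label was checked against markers. By the rule used above 54.5% of all genes passed, so a pass alone does not name a cell type. Of 7 adipocyte genes, 7 passed, among them Adipoq at 14.49 ± 0.031 and Fabp4 at 14.49 ± 0.015 (SD, n = 3). Of 7 fibroblast and preadipocyte genes, 6 passed, among them Col3a1 at 13.91 ± 0.019 and Dlk1, which marks preadipocytes, at 13.24 ± 0.10 (SD, n = 3), while Cd34 was at 5.49. Genes of both programmes were thus above background, and the integrin and laminin levels cannot be assigned to either kind of cell. Beside Itgb2, 4 of 8 leukocyte genes were above background, namely Lyz2 at 11.19 ± 0.089, Csf1r at 8.70 ± 0.10, Cd3e at 8.27 ± 0.024 and Laptm5 at 8.13 ± 0.15 (SD, n = 3). Ptprc, which all leukocytes carry, was at 4.64, and Ms4a1, Cd68 and Adgre1 were at 6.38, 6.56 and 6.67. The part of other cells in the level of Itgb2 was not tested. The count was 1 of 6 for endothelial genes, with Kdr at 8.29 and Pecam1, Cdh5, Tek, Vwf and Emcn between 5.19 and 5.64. It was 1 of 6 for epithelial genes, with Epcam at 10.20 and Krt5, Krt14, Krt8, Krt18 and Cldn4 between 5.73 and 7.25. Without probe sets ending in _s_at or _x_at, which can also detect other transcripts, 0 epithelial genes passed. The count was 1 of 4 for platelet and megakaryocyte genes. It was 2 of 3 for Schwann cell and pericyte genes, with Sox10 at 8.34, Cspg4 at 7.63 and Rgs5 at 6.34. For skeletal muscle it was 2 of 5, with Des at 9.07 and Ckm at 8.25 passing and Acta1, Myh1 and Myod1 between 6.19 and 6.99.

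**Figure D5:**
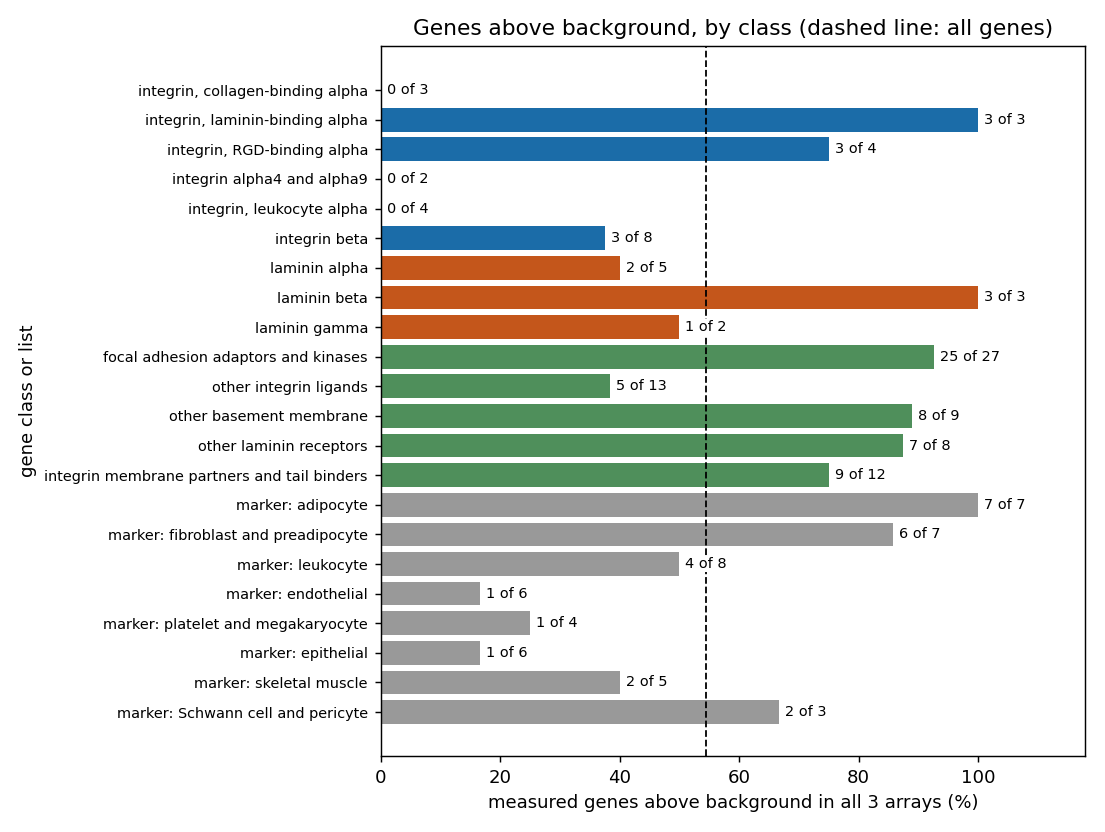
Share of measured genes above background in all 3 arrays (x axis, %) for each integrin and laminin class (blue and orange), the other lists of the pathway (green) and cell type markers (grey), with counts beside the bars (y axis, class or list). The dashed line is the share of all genes, 54.5%. Laminin-binding alpha chains (3 of 3) and focal adhesion genes (25 of 27) lie to its right, and collagen-binding (0 of 3) and leukocyte alpha chains (0 of 4) at 0. The integrin and laminin classes hold few genes, and some, such as Itga3, lie within 0.5 log2 units of the limit.

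Promoter windows, of 250 bases before and 50 after the gene start, were read from RefSeq sequence of build GRCm38.p6 for 22 of the 34 members. Itga6, Itga7, Itgae, Itgal, Itgb2, Itgb3, Itgb4, Lama1, Lama3, Lama4, Lamc1 and Lamc3 had no entry. For a gene with several windows, the window with the most CG was the one counted. The windows differed in their content of CG dinucleotides, whose density marks the promoters of many widely used genes. The 10 members above background had a median of 19 CG (range 4 to 27), and the 12 not above it a median of 10 (range 1 to 23). Over all genes with a window, the medians were 23 for the 8057 above background and 8 for the 6396 not above it. The windows below show this difference, with CG in capitals: for integrins and for laminins, the window with the most CG among members above background, with Itgax as one of those with the fewest among integrin genes not above it, and Lama2 as the only laminin gene not above it that had a window, chosen after the values were seen. They lie at chr8:128685404-128685703 (plus strand), chr7:128129300-128129599 (plus), chr2:180225810-180226109 (minus) and chr10:27616893-27617192 (minus), and hold 27, 5, 24 and 1 CG.
Itgb1: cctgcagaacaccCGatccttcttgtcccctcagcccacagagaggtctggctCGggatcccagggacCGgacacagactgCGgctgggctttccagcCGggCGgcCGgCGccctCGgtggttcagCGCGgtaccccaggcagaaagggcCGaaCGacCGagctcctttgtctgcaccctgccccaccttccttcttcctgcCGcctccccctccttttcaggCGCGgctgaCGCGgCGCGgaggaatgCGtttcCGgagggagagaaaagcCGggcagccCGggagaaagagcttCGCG
Itgax: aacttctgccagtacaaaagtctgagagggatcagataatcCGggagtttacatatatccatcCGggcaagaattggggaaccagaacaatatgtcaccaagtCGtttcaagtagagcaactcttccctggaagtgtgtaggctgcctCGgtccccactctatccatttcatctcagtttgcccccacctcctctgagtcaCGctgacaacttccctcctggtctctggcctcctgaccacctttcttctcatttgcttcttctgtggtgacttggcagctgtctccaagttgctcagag
Lama5: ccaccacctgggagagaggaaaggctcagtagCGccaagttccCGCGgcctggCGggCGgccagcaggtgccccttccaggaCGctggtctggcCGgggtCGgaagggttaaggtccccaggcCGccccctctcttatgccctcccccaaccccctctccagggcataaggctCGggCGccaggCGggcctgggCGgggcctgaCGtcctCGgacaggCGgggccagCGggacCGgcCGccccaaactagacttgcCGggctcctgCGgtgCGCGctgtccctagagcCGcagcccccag
Lama2: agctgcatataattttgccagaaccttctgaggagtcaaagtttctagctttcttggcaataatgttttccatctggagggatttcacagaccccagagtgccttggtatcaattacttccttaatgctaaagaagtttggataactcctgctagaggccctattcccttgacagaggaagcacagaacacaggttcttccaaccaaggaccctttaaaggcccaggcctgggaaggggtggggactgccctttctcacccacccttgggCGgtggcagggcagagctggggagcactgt

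The contrast was not complete in either direction. Lamb2, Lamb3 and Itga2b, all above background, had 4, 5 and 6 CG, and Itga8, which was not, had 23. The GC box GGGCGG, searched on both strands, was present in 7 of the 10 members above background and in 4 of the 12 others, against 70.7% and 40.5% of all genes with a window and 35.7% of all 32851 windows. The letters TATAAA, searched on both strands, were in 0 of the 22 members, against 11.5% of all genes with a window and 13.6% of all windows. In both searches a gene counted if any of its windows held the letters. The shares of all windows count each window alone, so they are not the same measure. A match of letters is a description of the window and does not mark a bound site.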

How the data were processed

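RNA from 3 samples of glucose oxidase-treated 3T3-L1 adipocytes was hybridised to mouse4302 Affymetrix arrays. The authors applied background correction and normalization by RMA, using affyPLM (version not given in the sources used here). The deposited files hold linear intensities, of which log2 was taken. Which arrays were normalized together, and any later scaling or centring, is unknown, and the number of arrays limits the precision.

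Of 45101 probe sets, 34958 were assigned to 1 gene by the platform annotation, 932 to several and 9211 to none. Through Entrez identifiers, 34754 of the 34958 matched RefSeq genes of assembly GRCm38.p6 and 0 symbols changed, with all 34 members matched. With 1 group there was no contrast to test, so counts, levels and SDs are given, and the call procedure was tested on simulated data. The members and lists were chosen with earlier results of these data known. Each member was named, and in each other list the genes not above background and at most 4 with the highest means could be named. A planned description of the members' protein sequences was not run, as no protein table was used here.

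Alternatives tried were the 99th and 90th percentiles as limit, keratin-associated and defensin genes as the background genes, the median over probe sets as a gene's level, exclusion of probe sets with an identifier ending in _s_at, _x_at or _a_at (or, chosen after seeing the data, _s_at or _x_at alone), centring, all measured members, and leaving out each array. Python 3.11.15 with pandas 2.3.3, numpy 2.4.6 and matplotlib 3.10.9 was used.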

Additional observations from a re-analysis of the deposited data

How the results depend on the processing

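No paired analysis was possible because 1 group was studied. The number of members above background, 15, was 10 to 17 under other limits, background genes and probe set rules, 15 on centring and 14 to 15 on leaving out each array. The number of all genes above background, 9918 of 18194, moved as well. It was 8733 with the 99th percentile, 10456 with the 90th and 9036 with keratin-associated and defensin genes, against 10, 17 and 13 members. With the median over probe sets it was 7994, against 10 members. Without probe sets ending in _s_at, _x_at or _a_at it was 8272, against 11 members. Without those ending in _s_at or _x_at it was 9529, against 13 members. The 99th percentile lost Itga3, Itga5, Itgb2, Lamb2 and Lamb3, and excluding probe sets with the endings _s_at, _x_at or _a_at lost Itga3, Itga5, Itga7 and Lamb3, 31 members being then measured. The ending _a_at marks transcripts of 1 gene, so the exclusion was repeated for _s_at and _x_at alone, an alternative chosen after seeing the data, which gave 13 members, lost Itga3 and Itga5, and left 4 complete integrin pairs. With the median over probe sets as the level, integrin genes above background fell to 5, complete integrin pairs to 0 and complete laminin trimers to 2, because low probe sets of Itgb1, Itgav, Itga3, Itga5 and Lama5 enter the median. Complete integrin pairs were 3 when all 3 endings were excluded. They were 4 with the 99th percentile, 7 with the 90th and 5 with a background of keratin-associated and defensin genes. Complete laminin trimers were 2 with the 99th percentile, 2 with a background of keratin-associated and defensin genes, and 2 to 4 on leaving out each array. The median level of members above background, 9.30, was 9.20 with the median over probe sets, 9.98 without all 3 endings, 9.92 without _s_at and _x_at, 7.39 over all measured members and 9.30 to 9.59 on leaving out each array. The median SD, 0.042, was 0.031 to 0.059 under the probe set rules, centring, all measured members and leaving out each array; it was not recomputed under other limits. Of the 34 levels, 11 moved by more than 1.5-fold with the median over probe sets. So did 5 of 31 without the 3 endings and 3 of 34 without _s_at and _x_at, namely Itga3, Itgb5 and Lamb1. Of the 78 counts recomputed for the other lists, 10 moved by more than 1.5 times, all for markers of other cell types. Signal near background limits the calls of the 11 members within 0.5 log2 units of the limit.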

Other observations

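Integrin-named genes outside the symbols used above gave the following values. Itgbl1, which encodes a secreted protein with repeats like those of integrin beta chains, was above background at a mean of 7.85 ± 0.17 (SD, n = 3), with replicate 2 the lowest at 7.67. Itgb2l, a relative of Itgb2, was not above background, at 7.43, 7.40 and 7.26 in replicates 1, 2 and 3 (7.36 ± 0.094, SD, n = 3).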
